A study of Homo sapiens with 8 samples.

Results

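The genes described here are 5 transcription factor genes of the anterior neural plate and its precursors, OTX1, OTX2, HESX1, ZIC2 and ZIC5, taken by gene symbol from 2 expression tables. All 5 were listed in both tables, as 5 of 19472 genes in the crowding table and 5 of 19551 genes in the ETV4 KD table. The cells were H9 (WA09), an established line of human embryonic stem cells (hESCs), grown on Matrigel in a defined stem cell medium. In the crowding experiment, high-density hESCs (labelled crowded), whose adhesive area had been limited to small Matrigel-coated islands that the cells then covered, were compared with low-density hESCs (labelled small). In the second experiment, hESCs transduced with a lentivirus coding for a short hairpin RNA against ETV4 (ETV4 KD) were compared with hESCs that received a scramble hairpin (Ctrl); the ETV4 hairpin used for sequencing, and whether both libraries carried the same one, is not given in the sources used here. Each of the 4 groups had 2 polyadenylated RNA libraries, 8 in all, of a single line. ETV4 is a transcription factor of the ETS family that acts downstream of FGF and ERK signalling, and the experiments ask which transcripts follow cell crowding and which follow loss of this factor. Nothing in the labels says that the 2 libraries of a group came from separate cultures, so the p-values measure only the spread between these libraries.

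OTX1 and OTX2 are homeodomain factors related to fly orthodenticle. OTX2 is required for the head, forebrain and midbrain of the embryo, and it is already present in the epiblast, where it accompanies the passage from naive to formative and primed pluripotency. HESX1 is a paired-like homeodomain repressor that works with TLE corepressors in the anterior neural plate and the pituitary primordium, and is also transcribed in pluripotent cells. ZIC2 and ZIC5 are zinc finger factors of the odd-paired family that act in neural plate and neural crest formation, and ZIC2 also occupies enhancers in primed pluripotent cells. The transcripts of such factors in hESCs therefore do not by themselves mark neural cells.

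In GRCh37 coordinates, OTX1 lies at chr2:63277192-63284971 on the plus strand, OTX2 at chr14:57266623-57283411 on the minus strand and HESX1 at chr3:57231866-57261634 on the minus strand. ZIC2, at chr13:100634038-100639019 on the plus strand, and ZIC5, at chr13:100615218-100624021 on the minus strand, are divergent neighbours whose 5′ ends are 10016 bases apart. OTX2 overlaps the antisense gene OTX2-AS1, which was in neither table. As the use of strand in the counting is not stated, reads of OTX2 and of its antisense partner cannot be told apart. The 250 bases before an annotated start (RefSeq, GRCh38.p14) are shown for OTX2, ZIC2 and ZIC5, the genes called in ETV4 KD, since the factor that was depleted binds DNA at a GGAA core. Each window matched GRCh37 once and touched no exon of the GENCODE gene annotation, and capitals mark GGAA or its reverse complement TTCC. The ZIC5 window shown, before start 3, also holds ZIC5 start 1, so part of it, with the marked TTCC, lies after that other start.
OTX2, start 1, chr14:57277198-57277447, minus strand: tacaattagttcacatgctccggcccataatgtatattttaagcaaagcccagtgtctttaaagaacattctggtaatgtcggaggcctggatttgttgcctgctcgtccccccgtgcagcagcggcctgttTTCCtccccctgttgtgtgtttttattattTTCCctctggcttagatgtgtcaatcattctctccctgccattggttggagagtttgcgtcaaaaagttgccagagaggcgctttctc
ZIC2, chr13:100633788-100634037, plus strand: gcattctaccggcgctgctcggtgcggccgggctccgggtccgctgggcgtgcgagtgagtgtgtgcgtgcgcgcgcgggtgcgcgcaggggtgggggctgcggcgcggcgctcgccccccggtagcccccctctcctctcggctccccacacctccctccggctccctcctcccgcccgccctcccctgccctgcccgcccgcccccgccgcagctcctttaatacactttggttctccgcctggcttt
ZIC5, start 3, chr13:100624022-100624271, minus strand: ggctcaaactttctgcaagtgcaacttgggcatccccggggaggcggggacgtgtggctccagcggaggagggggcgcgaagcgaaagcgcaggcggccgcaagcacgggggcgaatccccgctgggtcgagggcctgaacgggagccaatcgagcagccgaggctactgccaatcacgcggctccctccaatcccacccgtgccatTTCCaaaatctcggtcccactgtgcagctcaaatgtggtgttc
The core occurred 2 times in this OTX2 window, 0 times in the ZIC2 window and 1 time in this ZIC5 window. In the 250 bases not shown, it occurred 5 times before OTX2 start 2 and 1 time each before ZIC5 starts 1 and 2. The core was chosen after the windows had been read. It is not selective, since 95.5% of 35116 RefSeq promoter windows held it on either strand. Those windows were 300 bases, from 250 before the start to 50 after it. The longer ETS motif CCGGAA, held by 17.2% of all windows, the OTX motif TAATCC, held by 6.36%, and CAGCAGG, a core of the ZIC motif, held by 10.5%, were found on neither strand in any of the 9 windows of the 5 genes. A missing match says only that these letters are not in the window. GC content was 47.2% in the OTX2 window, 75.6% in the ZIC2 window and 64.8% in the ZIC5 window.

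Libraries held 50359703 to 62410168 counted reads over genes. The depletion itself was seen in the ETV4 transcript, which stood at 90.8 and 95.1 FPKM (fragment counts scaled to transcript length and to the library's total) in Ctrl and at 45.6 and 40.9 FPKM in ETV4 KD, a log2 fold change of −1.15 (SE 0.07, adjusted p = 1.60e-04). In the crowding experiment ETV4 was at 73.2 and 72.6 FPKM in low-density and at 54.2 and 53.9 FPKM in high-density cells, a log2 fold change of −0.49 (SE 0.06, adjusted p = 9.42e-07), just inside the fold threshold. Markers of pluripotent cells summed to 2835 to 3266 FPKM over all libraries with all 10 in the tables. The 8 neuroectoderm markers summed to 3.68 to 7.31 FPKM, with HES5 in neither table, SIX3 not in the crowding table and PAX6 not in the ETV4 KD table. Calls of differentially expressed genes (DEGs) needed a log2 fold change beyond 0.5 in either direction and, in the quasi-likelihood test of edgeR, an adjusted p (Benjamini-Hochberg, over all genes tested) of less than 0.05.

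In ETV4 KD, 3 of the 5 genes rose, OTX2, ZIC2 and ZIC5, and none fell, whereas in high-density cells none of the 5 was called in edgeR's test. Over all genes tested, 13.0% of 17879 were called in ETV4 KD, 5.88% as higher and 7.10% as lower, and 16.1% of 17672 were called in crowding, 10.7% as higher and 5.47% as lower. All 5 passed the filter on low counts in both experiments. In crowding 2 of the 5, OTX2 and ZIC5, had an unadjusted p under 0.05 in edgeR's test, and DESeq2's Wald test also called none of the 5. The median log2 fold change of the 5 was 0.83 in ETV4 KD, beside −0.0012 over all genes tested, and −0.13 in crowding, beside 0.0032.

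**Figure D1:**
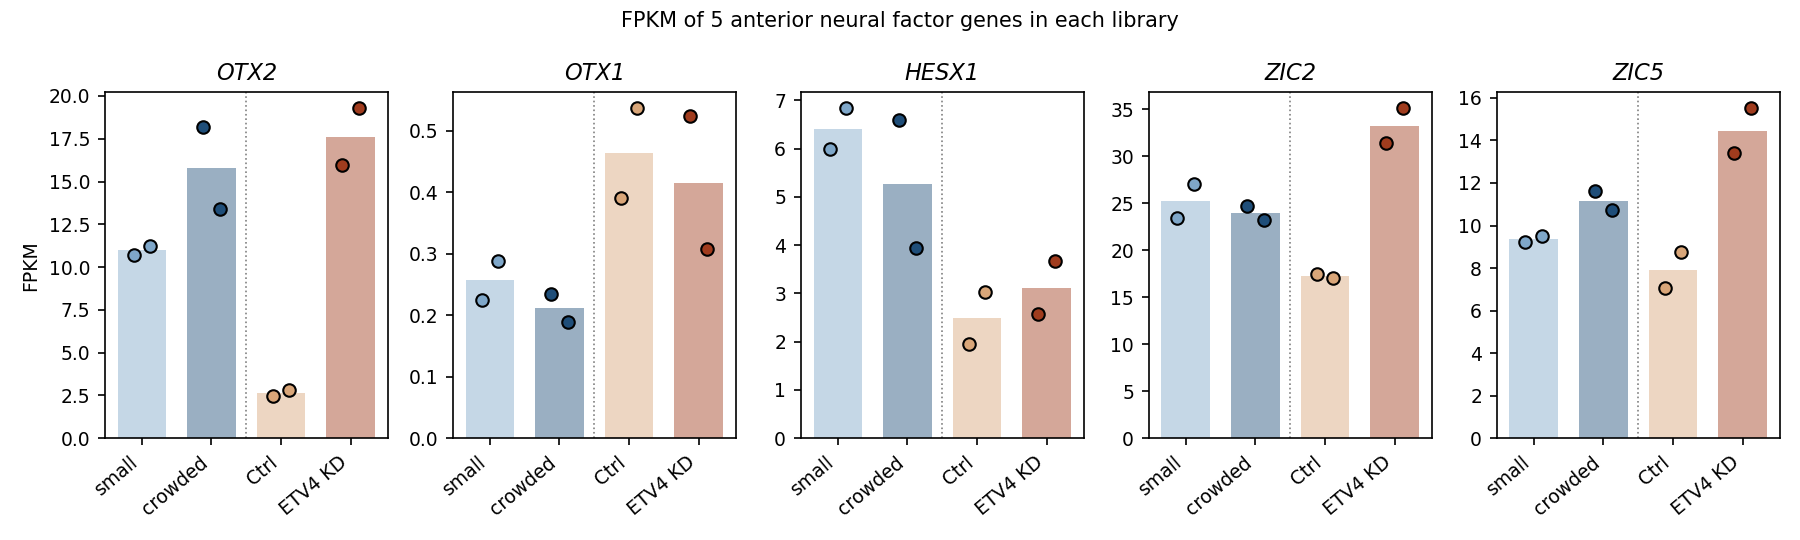
FPKM of each gene in each of the 8 libraries (points) with the mean of the 2 libraries of a group (bars); the vertical axis of each panel starts at 0 and has its own scale, and the dotted line separates the tables, which were normalized separately. OTX2 stood at 2.50 and 2.81 FPKM in Ctrl and at 15.95 and 19.27 FPKM in ETV4 KD, while the libraries of OTX1 and HESX1 overlapped between the groups of both experiments.

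OTX2 had the largest fold change of the 5 in ETV4 KD. Its read counts were 455 and 480 in Ctrl and 2838 and 3278 in ETV4 KD, which gave 2.50 and 2.81 FPKM in Ctrl and 15.95 and 19.27 FPKM in ETV4 KD. Both knockdown libraries stood far above both control libraries. The means were 2.66 ± 0.224 FPKM (SD, n = 2) and 17.6 ± 2.35 FPKM (SD, n = 2), a fitted 6.62-fold difference (log2 fold change 2.73, SE 0.13, 95% interval 2.42 to 3.03, adjusted p = 1.03e-04). Ordered by log2 fold change, OTX2 was the 19th highest of the 17879 genes tested. In the crowding experiment OTX2 stood at 10.7 and 11.2 FPKM in low-density and at 18.2 and 13.4 FPKM in high-density cells. Both high-density libraries were above both low-density ones, but they differed from each other more than the nearer of them did from the low-density libraries. The log2 fold change was 0.47 (SE 0.15, 95% interval 0.10 to 0.84) with an adjusted p of 0.0551, which missed both thresholds. Without crowded replicate 1 the difference was 0.23, and without crowded replicate 2 it was 0.68 and passed the test. The level of OTX2 in Ctrl was thus below that in low-density cells of the other table, while ETV4 KD was near the crowded libraries; the tables were normalized separately and these levels were not tested against each other.

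OTX1, the paralogue of OTX2, was the least abundant of the 5, with 41 to 96 reads in a library. It stood at 0.226 and 0.289 FPKM in low-density, 0.234 and 0.190 FPKM in high-density, 0.391 and 0.537 FPKM in Ctrl and 0.525 and 0.308 FPKM in ETV4 KD cells. The groups overlapped in both experiments. The log2 fold change was −0.33 in crowding (SE 0.31, 95% interval −0.98 to 0.32, adjusted p = 0.429) and −0.12 in ETV4 KD (SE 0.31, 95% interval −0.83 to 0.59, adjusted p = 0.813). The interval in ETV4 KD left out rises of the size found there for OTX2, ZIC2 and ZIC5. Per length, OTX2 exceeded OTX1 by 5.24 to 6.39 times in Ctrl and by 30.4 to 62.6 times in ETV4 KD.

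HESX1, the repressor of the group, was transcribed at an intermediate level, with 119 to 462 reads in a library. It stood at 5.99 and 6.83 FPKM in low-density cells and at 6.59 and 3.95 FPKM in high-density cells. One crowded library lay among the low-density ones and the other lay below them. The log2 fold change was −0.34 (SE 0.20, 95% interval −0.78 to 0.09, adjusted p = 0.2). It rests on crowded replicate 2, since it was −0.76 and called without crowded replicate 1 and −0.01 without crowded replicate 2. In the other experiment HESX1 stood at 1.94 and 3.03 FPKM in Ctrl and at 2.57 and 3.66 FPKM in ETV4 KD, and the groups overlapped. The log2 fold change was 0.34 (SE 0.28, 95% interval −0.30 to 0.98, adjusted p = 0.413), an interval that holds both no change and a change as large as that of ZIC2. HESX1 was at 0.778 to 1.08 times the level of OTX2 in Ctrl and at 0.161 to 0.190 times in ETV4 KD. Of the TLE corepressor genes, the partners of HESX1, none of the 6 tested was called in either experiment in edgeR's test or by DESeq2. In edgeR's test 4 in crowding and 1 in ETV4 KD had an unadjusted p under 0.05. Over all genes tested, edgeR called 16.1% in crowding and 13.0% in ETV4 KD, and these 6 were not tested against those shares. TLE1 passed the adjusted p threshold but not the fold threshold in both, at a log2 fold change of −0.28 each. Its adjusted p was 6.35e-04 in crowding and 0.0393 in ETV4 KD, and TLE3 passed in crowding alone (0.28, adjusted p = 0.00149).

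ZIC2 was the most abundant of the 5 in every library. It stood at 17.5 and 17.1 FPKM in Ctrl and at 31.4 and 35.1 FPKM in ETV4 KD, from 2948 to 6107 reads. Both knockdown libraries lay above both control libraries, by more than the spread within either group. The means were 17.3 ± 0.299 FPKM (SD, n = 2) and 33.2 ± 2.63 FPKM (SD, n = 2), and the log2 fold change was 0.95 (SE 0.09, 95% interval 0.73 to 1.16, adjusted p = 8.73e-04), a fitted 1.93-fold difference. In crowding ZIC2 stood at 23.4 and 27.0 FPKM in low-density and at 24.7 and 23.2 FPKM in high-density cells, with overlapping groups. There the log2 fold change was −0.13 (SE 0.07, 95% interval −0.27 to 0.01, adjusted p = 0.12), so that the interval left out changes beyond the fold threshold in either direction.

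ZIC5, the divergent neighbour of ZIC2, rose with it in ETV4 KD. It stood at 7.08 and 8.77 FPKM in Ctrl and at 13.4 and 15.5 FPKM in ETV4 KD. The groups were clearly separated. The means were 7.92 ± 1.19 FPKM (SD, n = 2) and 14.5 ± 1.48 FPKM (SD, n = 2), and the log2 fold change was 0.83 (SE 0.11, 95% interval 0.59 to 1.08, adjusted p = 0.0025), a fitted 1.78-fold difference. In crowding ZIC5 stood at 9.24 and 9.52 FPKM in low-density and at 11.6 and 10.7 FPKM in high-density cells. The high-density libraries were both higher, by a small amount. The log2 fold change of 0.18 (SE 0.07, 95% interval 0.04 to 0.32, adjusted p = 0.0401) passed the p threshold but not the fold threshold. The ratio of ZIC5 to ZIC2 FPKM was 0.352 to 0.395 in low-density, 0.462 to 0.470 in high-density, 0.404 to 0.513 in Ctrl and 0.427 to 0.442 in ETV4 KD cells, so that the ratio in ETV4 KD lay within the range of its controls and the ratio in high-density cells lay above that of the low-density ones.

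The order of the 5 levels, per length, was ZIC2, OTX2, ZIC5, HESX1 and OTX1 in low-density, high-density and ETV4 KD cells, and no neighbours in that order overlapped within a group. In Ctrl the order was ZIC2 and then ZIC5, with OTX2 and HESX1 next, whose libraries overlapped, and OTX1 at the bottom. These are bulk RNA samples, in which more cells with a transcript and more RNA per cell cannot be told apart.

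To ask whether the genes moved differently in the 2 experiments, the log2 fold change in crowding was subtracted from that in ETV4 KD in one fit over all 8 libraries. OTX2, ZIC2 and ZIC5, 3 of the 5, differed in the direction of a larger change in ETV4 KD. Over all genes the same test called 27.5% of 17790, with 12.5% larger and 15.0% smaller in ETV4 KD, so calls in this comparison were common. The difference was 2.26 for OTX2 (SE 0.20, adjusted p = 1.48e-05), 1.09 for ZIC2 (SE 0.13, adjusted p = 6.58e-05) and 0.66 for ZIC5 (SE 0.13, adjusted p = 0.00218). It was 0.69 for HESX1 (SE 0.38, 95% interval −0.14 to 1.52, adjusted p = 0.177) and 0.22 for OTX1 (SE 0.43, 95% interval −0.71 to 1.14, adjusted p = 0.723). For HESX1 and OTX1 the intervals hold 0 and reach beyond 1, and do not show that the experiments acted alike.

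**Figure D2:**
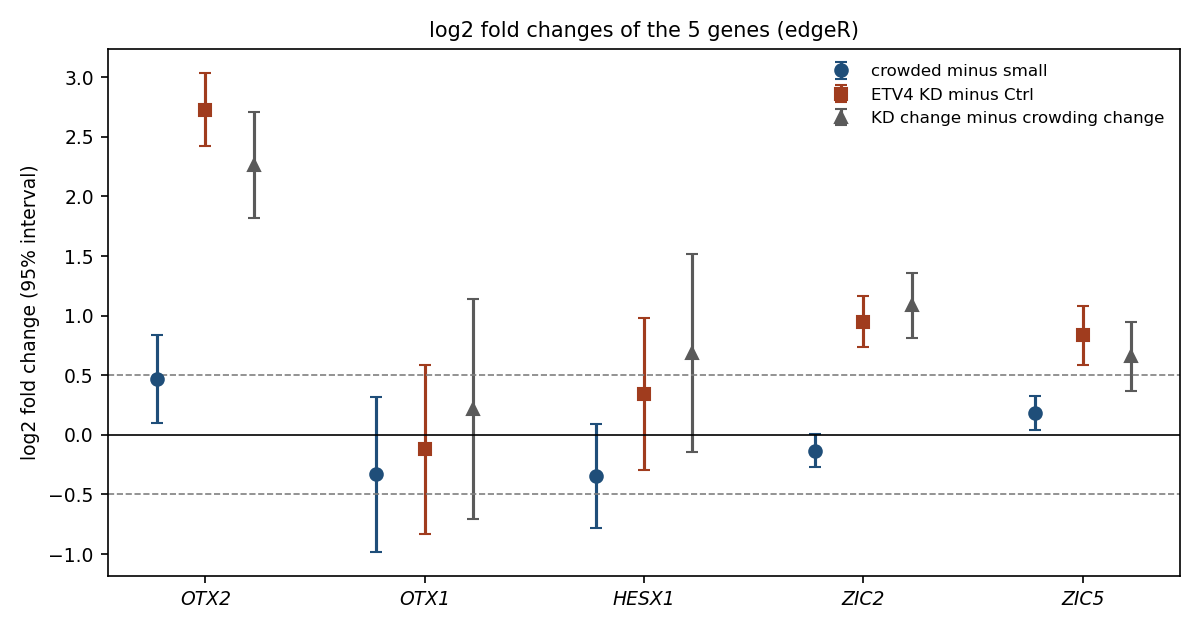
log2 fold change of each gene (vertical axis) with its 95% interval, for crowded minus small (circles), ETV4 KD minus Ctrl (squares) and the second minus the first (triangles); dashed lines mark the fold threshold of 0.5 in both directions. The interval of OTX2 in ETV4 KD (2.42 to 3.03) lies above those of ZIC2 (0.73 to 1.16) and ZIC5 (0.59 to 1.08), and the intervals of OTX1 and HESX1 span 0 in both experiments.

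Among the relatives of these genes, GLI1, a zinc finger target of hedgehog signalling, rose in ETV4 KD (log2 fold change 0.69, SE 0.11, adjusted p = 0.00529) and had a log2 fold change of 0.49 in crowding (SE 0.08, adjusted p = 3.47e-05). ZIC1 was at most at 0.0453 FPKM in any library, and ZIC4 and CRX were not in the tables.

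The wider programme of forebrain and eye field factors was mixed. For scale, 16.1% of all genes tested were called in crowding and 13.0% in ETV4 KD. Of 19 genes, 10 were in the crowding table and 9 were tested, of which 3 rose (LHX5, FEZF1 and SP8) and 3 fell (SIX6, LHX2 and EMX1), with a median log2 fold change of 0.38. In ETV4 KD 7 were tested, 1 rose and 1 fell, with a median of 0.20. FEZF1, a zinc finger repressor of the rostral forebrain, rose in both, from 0.4177 and 0.5003 FPKM to 1.63 and 0.841 FPKM in crowding (log2 fold change 1.38, SE 0.28, adjusted p = 6.53e-04) and from 0.145 and 0.242 FPKM to 0.962 and 1.94 FPKM in ETV4 KD (log2 fold change 2.89, SE 0.41, adjusted p = 0.00351). The crowding value of FEZF1 was 0.85 without crowded replicate 1, and with limma on all genes it was 0.82 and not called (adjusted p = 0.068). EMX1, a homeobox gene of the dorsal telencephalon, fell in both, by 1.64 in crowding and by 0.82 in ETV4 KD on the log2 scale, the latter no longer called without Ctrl replicate 1, Ctrl replicate 2 or ETV4 KD replicate 1 (−0.84, −0.80 and −0.66) or by DESeq2. SP8 rose in crowding from 0.392 and 0.388 FPKM to 1.06 and 1.58 FPKM. SIX6, an eye field homeobox gene, fell there from 1.21 and 0.898 FPKM to 0.206 and 0.280 FPKM. The list of midbrain, hindbrain and posterior factors, kept for contrast, had 4 of 11 tested called higher in crowding and 2 of 9 in ETV4 KD, with none lower. DESeq2's Wald test called 2 of this list in each experiment. IRX2 was the most abundant gene of the list. It rose from 4.21 and 4.17 FPKM to 9.33 and 12.7 FPKM in ETV4 KD (log2 fold change 1.39, SE 0.16, adjusted p = 0.00163). In crowding IRX2 rose from 10.05 and 10.43 FPKM to 18.5 and 16.2 FPKM (log2 fold change 0.71, SE 0.07, adjusted p = 3.01e-07). EGR2, a hindbrain zinc finger gene, rose by 0.95 on the log2 scale in ETV4 KD, but was not called without Ctrl replicate 1 (0.84).

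Early neuroectoderm genes did not move as 1 block. Among all genes tested, 5.88% rose and 7.10% fell in ETV4 KD, and 10.7% rose and 5.47% fell in crowding. In ETV4 KD, 1 of 10 tested rose and 2 fell, with a median log2 fold change of 0.23, and in crowding 2 of 12 rose and 5 fell, with a median of −0.26. SOX3, a SOXB1 factor of neural progenitors, rose in ETV4 KD from 3.63 and 3.73 FPKM to 4.92 and 6.56 FPKM and fell in crowding from 4.18 and 4.56 FPKM to 1.89 and 2.26 FPKM. The rise of SOX3 in ETV4 KD was not called without Ctrl replicate 1 (log2 fold change 0.64) or without ETV4 KD replicate 2 (0.40). DCX, a microtubule protein of migrating neurons, fell in ETV4 KD by 1.95 on the log2 scale (SE 0.17, adjusted p = 5.29e-04). The 2 that rose in crowding were DLL1, a Notch ligand, from 0.536 and 0.372 FPKM to 2.53 and 2.55 FPKM (log2 fold change 2.43, SE 0.17, adjusted p = 9.47e-10), and SOX1, another SOXB1 factor, whose level remained far lower (log2 fold change 2.27, SE 0.61, adjusted p = 0.00548) and which was not called without small replicate 2 (2.35, adjusted p = 0.0504). CDH2, the neural cadherin, and NES, an intermediate filament of progenitors, fell in crowding by 1.53 and by 0.55 on the log2 scale (NES to −0.50 and not called without crowded replicate 2), and had log2 fold changes of 0.27 and 0.39 in ETV4 KD. The summed FPKM of the 8 neuroectoderm markers was 6.88 to 7.31 in Ctrl and 3.68 to 4.37 in ETV4 KD, and 5.65 to 6.63 in low-density and 4.54 to 4.69 in high-density cells. Most of each sum came from FABP7, at a mean of 5.26 FPKM in Ctrl and 3.38 FPKM in ETV4 KD. It was not called there (edgeR's test, adjusted p = 0.0576), but was called lower in crowding, from 5.37 to 3.68 FPKM. DCX added 1.55 FPKM in Ctrl and 0.397 FPKM in ETV4 KD. In ETV4 KD the summed values were lower while OTX2, ZIC2 and ZIC5 were higher, and their part in the result was not tested. SOX1, a defining marker, was at or below 0.0666 FPKM in every library.

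OTX2 and ZIC2 are also counted among the genes of formative and primed pluripotency, and 12 other genes of that kind were tested. In ETV4 KD 5 of the 12 fell (POU3F1, DNMT3B, TCF15, THY1 and DUSP6), 1 rose (SOX3), and the median log2 fold change was −0.52. Among all genes tested there, 7.10% fell and 5.88% rose. DNMT3B, a de novo DNA methyltransferase, fell from 354 and 359 FPKM to 212 and 192 FPKM (log2 fold change −0.82, SE 0.07, adjusted p = 4.64e-04). POU3F1, also called OCT6, fell from 7.998 and 8.517 FPKM to 5.84 and 5.28 FPKM. TCF15, a mesodermal bHLH factor also transcribed in pluripotent cells, was not called without Ctrl replicate 2, at a log2 fold change of −0.60. DUSP6, the ERK phosphatase that ERK signalling itself induces, fell by 0.97 in ETV4 KD and by 1.67 in crowding on the log2 scale. In crowding 4 of the same 12 genes fell (POU3F1, SOX3, THY1 and DUSP6) and 2 rose, with a median log2 fold change of −0.27. Among all genes tested in crowding, 5.47% fell and 10.7% rose. Of the 14 core pluripotency genes, none was called in crowding in edgeR's test, which called 16.1% of all genes tested, or by DESeq2. However, 10 had an unadjusted p under 0.05, and all 10 also passed the adjusted p threshold but not the fold threshold. In edgeR's test SOX2 was at 0.41 (adjusted p = 6.71e-06) and NANOG at −0.46 (adjusted p = 3.36e-06) on the log2 scale. Without crowded replicate 2, NANOG was at −0.52. In ETV4 KD LIN28A rose while TDGF1 and TERF1 fell. POU5F1 stood at 1016 and 1181 FPKM in Ctrl and at 1288 and 1405 FPKM in ETV4 KD (log2 fold change 0.30, adjusted p = 0.0505), and NANOG had a log2 fold change of −0.44 (adjusted p = 0.0165), or −0.58 and called without ETV4 KD replicate 1. The 10 pluripotent cell markers summed to 2835 to 3017 FPKM in Ctrl and to 3232 to 3266 FPKM in ETV4 KD. These sums were higher in the same libraries as OTX2, ZIC2 and ZIC5, and their part in the result was not tested. Single markers went both ways. From Ctrl to ETV4 KD the mean of LIN28A went from 346.4 to 492.1 FPKM and that of TDGF1 from 336.5 to 189.7 FPKM. Of 9 naive pluripotency genes tested in crowding 3 rose and 1 fell, and of 10 tested in ETV4 KD 1 rose and 3 fell. DPPA5, TFCP2L1 and SUSD2 rose in crowding and fell in ETV4 KD. Without crowded replicate 2, TFCP2L1 was at 0.39 in crowding, inside the fold threshold. KLF4 rose in ETV4 KD, from 1.15 and 0.864 FPKM to 1.98 and 2.65 FPKM. With limma on all genes the ETV4 KD calls of KLF4 (adjusted p = 0.0542), TFCP2L1 (0.0694) and SUSD2 (0.0546) were lost. NR5A2, an orphan nuclear receptor, fell in crowding by 0.81 on the log2 scale.

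Called genes of the anterior endoderm and organizer, tissues that in the embryo pattern the neural plate in which OTX2 and HESX1 act, mostly fell in both experiments. In ETV4 KD 5 of 9 tested fell and 1 rose, with a median log2 fold change of −1.36, and in crowding 5 of 9 fell and 1 rose, with a median of −1.67. LEFTY1, a Nodal antagonist, fell from 19.8 and 21.4 FPKM to 2.13 and 3.18 FPKM in ETV4 KD (log2 fold change −2.95, SE 0.19, adjusted p = 1.60e-04) and from 15.9 and 16.7 FPKM to 5.54 and 3.57 FPKM in crowding. NODAL itself fell from 3.40 and 3.68 FPKM to 0.909 and 1.32 FPKM in ETV4 KD and from 10.4 and 10.7 FPKM to 4.09 and 2.83 FPKM in crowding. CER1, a secreted antagonist of Nodal and BMP, fell by 1.09 in ETV4 KD and by 3.53 in crowding on the log2 scale. SHISA2, which dampens Wnt and FGF receptors, fell in ETV4 KD by 1.72 and had a log2 fold change of −0.20 in crowding. Mesendoderm genes had 1 of 7 called higher and 1 lower in crowding and 1 of 5 called lower in ETV4 KD. Neural crest and surface ectoderm genes had 2 of 7 higher and 1 lower in crowding. None of their 10 tested in ETV4 KD was called in edgeR's test or by DESeq2, while 2 had an unadjusted p under 0.05. The shares called over all genes tested were 16.1% in crowding and 13.0% in ETV4 KD, and the lists were not tested against them. In crowding TBX6, a paraxial mesoderm factor, rose by 1.75, WNT3, a ligand of gastrulation, fell by 2.14 and TFAP2C, an AP-2 factor, rose by 0.61 on the log2 scale, and in ETV4 KD the VEGF receptor KDR fell by 0.75.

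**Figure D3:**
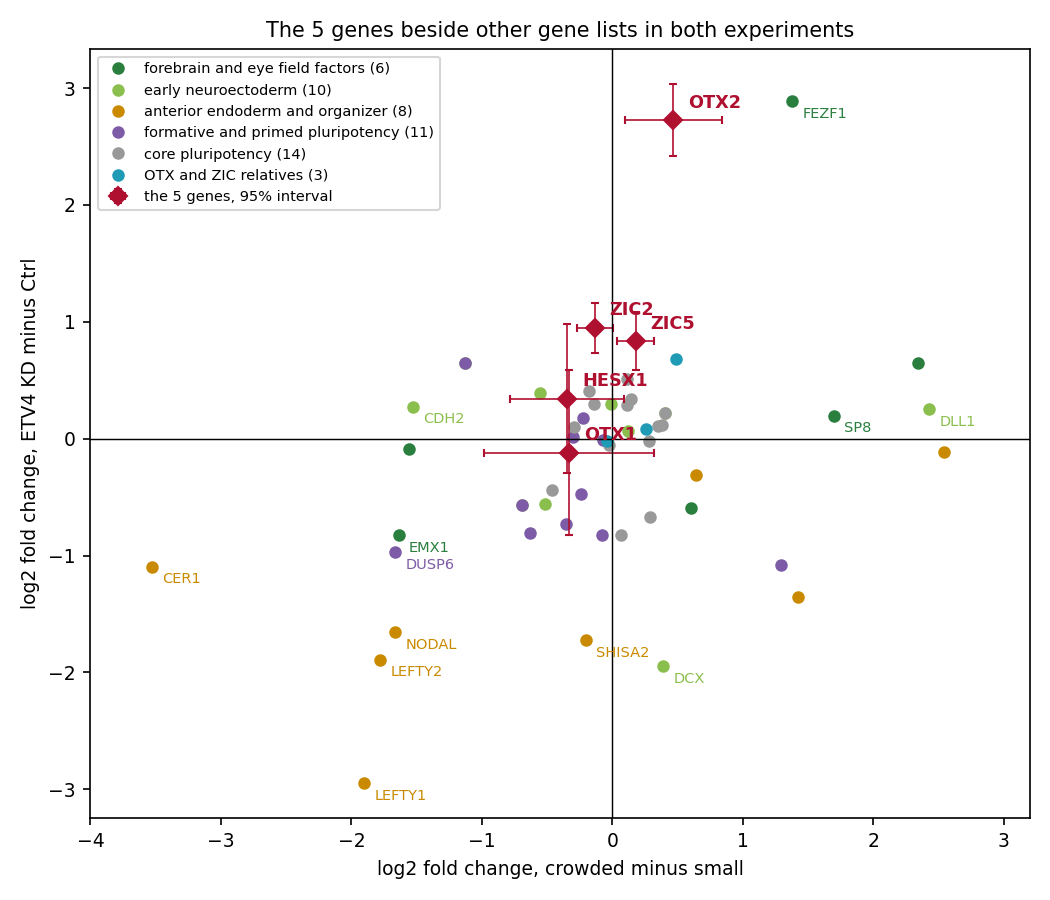
log2 fold change in crowding (horizontal axis) against that in ETV4 KD (vertical axis) for the 5 genes (diamonds with 95% intervals) and for genes of 6 lists tested in both experiments (circles, number of genes shown in brackets; a gene in 2 lists is drawn in the colour of the later one). OTX2 lies at 0.47 and 2.73 and FEZF1 at 1.38 and 2.89, while LEFTY1, LEFTY2, NODAL and CER1 lie below 0 on both axes.

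Genes next to the 5 on their chromosomes were followed to see whether the changes spread over a region. None of the 11 neighbours tested in ETV4 KD was called in edgeR's test or by DESeq2, while 4 had an unadjusted p under 0.05. Of these, IL17RD and TMTC4 also passed the adjusted p threshold of edgeR's test (0.0129 and 0.0178) but not the fold threshold. In crowding 2 rose and 1 fell. Over all genes tested, 13.0% were called in ETV4 KD and 16.1% in crowding, and the neighbours were not tested against these shares. EXOC5, 383.8 kb from OTX2 and a subunit of the exocyst, had a log2 fold change of 0.14 in ETV4 KD (SE 0.08, adjusted p = 0.262), beside 2.73 for OTX2. Around the ZIC genes, CLYBL, 72.3 kb from ZIC2, had −0.28 in ETV4 KD (SE 0.17, adjusted p = 0.25) and PCCA, 102.2 kb from ZIC2, had −0.09 (SE 0.09, adjusted p = 0.513), and both are mitochondrial enzymes. In crowding, where ZIC2 and ZIC5 were not called, CLYBL rose from 2.13 and 1.92 FPKM to 3.90 and 5.22 FPKM (log2 fold change 1.11, SE 0.17, adjusted p = 3.62e-05) and PCCA rose by 0.55 on the log2 scale (SE 0.07), or by 0.46 and not called without small replicate 2. IL17RD, 27.5 kb from HESX1 and an inhibitor of FGF signalling also called SEF, fell in crowding from 16.9 and 16.9 FPKM to 10.65 and 10.98 FPKM (log2 fold change −0.70, SE 0.06, adjusted p = 6.27e-09) and had −0.50 in ETV4 KD (SE 0.10, adjusted p = 0.0129), just inside the fold threshold, and was called at −0.56 without Ctrl replicate 2 and at −0.63 without ETV4 KD replicate 1, as was TMTC4 at −0.61 without the latter. APPL1, whose 5′ end is 119 bases from that of HESX1, had −0.07 in crowding and −0.29 in ETV4 KD. EHBP1, 3.6 kb from OTX1, had −0.35 in crowding and −0.02 in ETV4 KD.

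**Figure D4:**
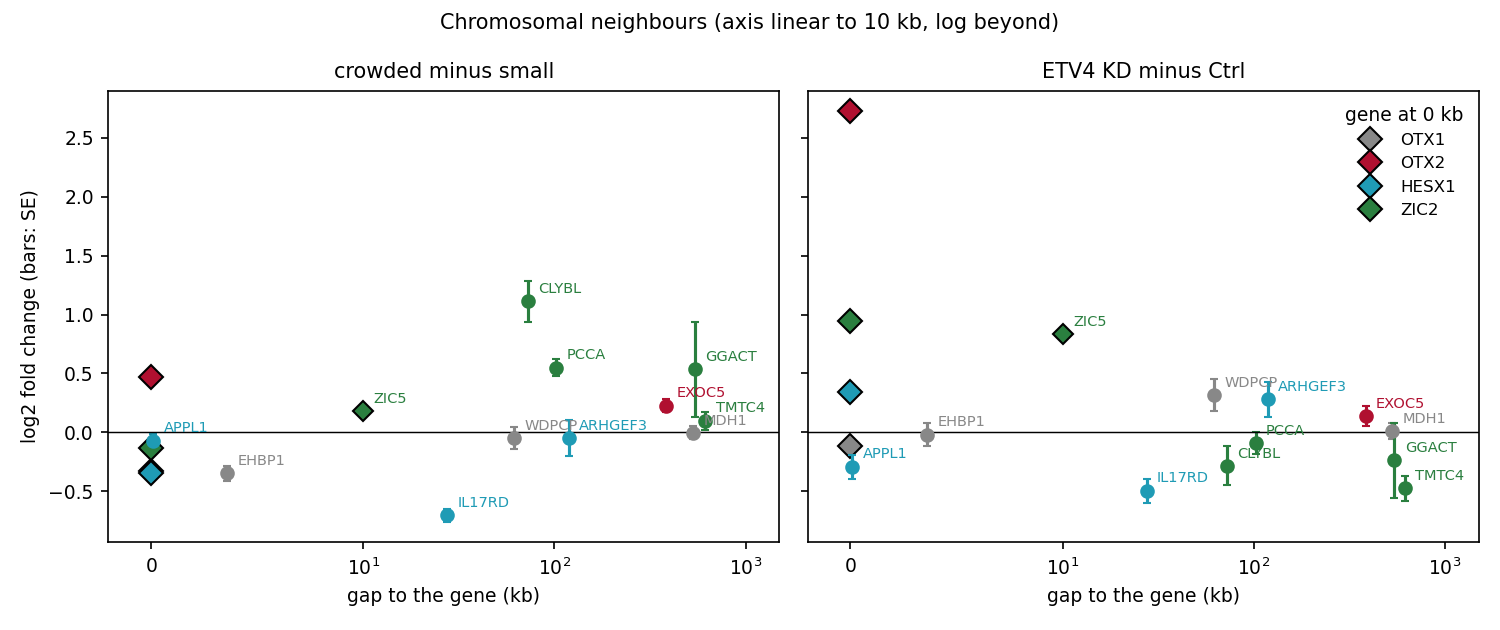
log2 fold change (vertical axis, bars show the SE) of genes near OTX1, OTX2, HESX1 and ZIC2 against the gap to that gene in kb (horizontal axis, linear to 10 kb and logarithmic beyond), in crowding (left) and ETV4 KD (right); diamonds are the genes themselves and ZIC5. In ETV4 KD, ZIC5 lies with ZIC2 at 0.83 and 0.95, while the other neighbours of ZIC2 lie between −0.47 (TMTC4) and −0.09 (PCCA).

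The genes whose pattern over the 8 libraries was nearest to each of the 5 were found by the root mean square difference in log2 CPM, centred within each table, over 12536 other genes with a mean of at least 1 FPKM (12537 for OTX1, which did not reach that level). For OTX2 these were DDIT3 (0.267), MIR22HG (0.341) and JAKMIP2-AS1 (0.357), of which DDIT3 had log2 fold changes of 0.88 in crowding and 2.26 in ETV4 KD. For ZIC2 they were SNORD139 (0.0584), VGLL3 (0.0585) and CCT6P3 (0.0642), and for ZIC5 LOC728485 (0.0391), GAS8 (0.0415) and ZNF671 (0.0593). For HESX1 they were CHIC2 (0.132), PKDCC (0.138) and LY6G5B (0.141), and for OTX1 CAPN10-DT (0.127), GHRLOS (0.127) and SNORA24 (0.134). The distance between ZIC2 and ZIC5 was 0.134, which made ZIC5 the 126th nearest gene to ZIC2, and that between OTX2 and ZIC2 was 0.670, as the change of OTX2 was larger. Distances are descriptions over libraries that share their groups, and they do not separate a common response from other differences between those groups.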

How the data were processed

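RNA of 8 libraries (4 groups of 2) was sequenced as paired reads after polyadenylated, stranded library preparation. The authors trimmed reads with Trimmomatic, aligned them with HISAT2 2.1.0 to GRCh37 and assembled and quantified transcripts with StringTie 2.1.3b, per the labels and the study's methods. The deposited read counts per gene are raw, and the deposited FPKM values are scaled by the authors to transcript length and library size. Each table lists only genes with at least 1 read in every library of its experiment. 16 further per-sample columns (TPM and normalized values) and the authors' own fold changes and p-values were not used.

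Counts were tested with edgeR 4.0.16 (R 4.3.3; filterByExpr, TMM, robust quasi-likelihood fit), within each table and, for the difference of the responses, over the genes in both tables. p-values were adjusted by Benjamini-Hochberg over all genes tested, and the scripts were tested on simulated data. FPKM served for levels. SE is the absolute log2 fold change over the square root of F. Totals of 50359703 to 62410168 counts leave a counting error of 1.28% to 15.62% of the value for the 5 genes, the largest for OTX1. This covers counting error only.

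The 5 genes and all 12 gene lists were chosen with earlier results of these data known. Named from each list were genes called in either experiment with a mean of at least 1 FPKM in a group, at most 4 per direction, plus defining markers, relatives and all chromosomal neighbours; not every gene that this rule names is given with its values, 1 relative is not reported here, and genes named only in a count were chosen after their values were seen. Alternatives were DESeq2 1.42.0 (size factors or its Wald test), other filters on low counts, limma 3.58.1 on log2(FPKM + 0.5) and with pseudocounts of 0.1 and 1, the replicate number as a block, and leaving out each library. Replicate numbers were not taken as pairs.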

Additional observations from a re-analysis of the deposited data

Results flagged for a closer look

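The change in ETV4 KD and the change in crowding differed in the test of the difference itself for 3 of the 5 genes. The log2 fold change in ETV4 KD exceeded that in crowding by 2.26 for OTX2, by 1.09 for ZIC2 and by 0.66 for ZIC5. The same test called 27.5% of all genes tested, and the experiments also differ in what they share with their controls, since the ETV4 KD libraries and their controls had been transduced and the crowding libraries had not. Groups of 2 libraries are too small for a search for outlying samples.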

How the results depend on the processing

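The calls of OTX2, ZIC2 and ZIC5 in ETV4 KD and in the difference of the responses held under every alternative run. Leaving out 1 library at a time, with the lone library of a group assumed to vary like the others, gave log2 fold changes in ETV4 KD of 2.55 to 2.88 for OTX2, 0.83 to 1.06 for ZIC2, 0.72 to 0.94 for ZIC5, 0.03 to 0.69 for HESX1 and −0.45 to 0.18 for OTX1. In the difference the ranges were 2.05 to 2.50 for OTX2, 0.971 to 1.196 for ZIC2, 0.55 to 0.77 for ZIC5, 0.36 to 1.11 for HESX1 and −0.11 to 0.51 for OTX1, and HESX1 passed at 1.11 without crowded replicate 1 (adjusted p = 0.0437). In crowding they were 0.23 to 0.68 for OTX2, −0.76 to −0.0119 for HESX1, −0.44 to −0.19 for OTX1, −0.23 to −0.03 for ZIC2 and 0.12 to 0.25 for ZIC5. OTX2 in crowding was the nearest to a threshold: it passed at 0.50 with limma on log2(FPKM + 0.1) and also without small replicate 2 (0.50) or crowded replicate 2 (0.68), and with all libraries its adjusted p was 0.0109 to 0.0912 over the alternatives. The sign of OTX1 was positive in ETV4 KD without Ctrl replicate 2 (0.18) or ETV4 KD replicate 2 (0.14), and negative in the difference without Ctrl replicate 1 (−0.03) or ETV4 KD replicate 1 (−0.11). The causes were not tested.

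Over all genes, limma called fewer. In crowding it called 1184 genes higher and 540 lower on log2(FPKM + 0.5), 626 lower with a pseudocount of 0.1, 850 and 422 with a pseudocount of 1, and 1238 and 538 without its filter on low FPKM. In ETV4 KD it called 624 and 701 with a pseudocount of 1 and 534 and 518 without the filter. Without that filter the crowding calls of FEZF1, SOX1, NES and TFCP2L1 and the ETV4 KD calls of EMX1, EGR2, SOX3, TCF15, KLF4, TFCP2L1, SUSD2 and KDR were lost, the latter at adjusted p of 0.0532 (EGR2) to 0.0849 (SOX3); NES was also lost with every other limma setting, TFCP2L1 in crowding with pseudocounts of 0.5 and 1, and NR5A2 in crowding and EMX1, EGR2 and POU3F1 in ETV4 KD with a pseudocount of 1. Without 1 library, edgeR called 1531 to 2209 genes higher and 854 to 1199 lower in crowding, 734 to 1515 and 853 to 1875 in ETV4 KD, and 1773 to 2644 and 2102 to 3170 in the difference. Signs near 0 turned for some neighbours and ZIC1. In crowding MDH1 was at 0.0021 with at least 10 counts in every library and at 0.0536, 0.0537 and 0.0534 with limma, WDPCP at 0.0307, 0.0353 and 0.0265 with limma and ARHGEF3 at 0.0051, 0.0057 and 0.0044 with limma (pseudocounts of 0.5, 0.1 and 1). Without 1 library at a time, MDH1 ranged from −0.0208 to 0.0159, WDPCP from −0.10 to 0.0018, ARHGEF3 from −0.19 to 0.0708 and ZIC1 from −0.70 to 0.78 in crowding, and EHBP1 ranged from −0.16 to 0.11, MDH1 from −0.0011 to 0.0243 and PCCA from −0.19 to 0.0017 in ETV4 KD.

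With the replicate number as a block, OTX2 was at 2.72, ZIC2 at 0.94, ZIC5 at 0.83, HESX1 at 0.35 and OTX1 at −0.12 in ETV4 KD, and at 0.45, −0.13, 0.18, −0.38 and −0.33 in crowding; the differences were 2.27, 1.08, 0.66, 0.73 and 0.21, and no call of the 5 changed. The block called 1255 genes higher and 1646 lower in ETV4 KD. Deviations of same-numbered libraries correlated at −0.0456 in crowding and 0.161 in ETV4 KD, and the labels do not say that a number marks a shared culture. The 41 to 96 reads of OTX1 limit it to large changes.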
